A study of Mus musculus with 45 samples.

Results

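Open chromatin regions (OCRs) around Lefty1, Lefty2, Nodal and Tdgf1, genes of the Nodal signalling pathway, were followed by ATACseq in mouse embryonic stem cells (mESCs) after acute loss of SOX2, OCT4 or NANOG. In ATACseq the transposase Tn5 cuts accessible DNA, so the number of fragments over a region measures how open it is. A region was taken as a member when its summit in the deposited peak list lies within 30 kb of the 5′ end of 1 of these 4 genes in the GENCODE annotation of mm10. The rule found 57 of 184964 peaks, of which 11 belong to Lefty1, 14 to Lefty2, 18 to Nodal and 14 to Tdgf1. Each peak is named here by its gene and the distance of its summit from the gene's 5′ end, with a minus sign for upstream. The 5′ ends of the neighbouring Lefty genes are 41914 bp apart on chromosome 1, and 4 peaks in reach of both were given to the nearer gene.

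Nodal is a secreted ligand of the TGF-β family that signals through activin receptors and SMAD2/3 to keep the early epiblast pluripotent and to pattern the embryo. Tdgf1 (Cripto) is the membrane co-receptor that Nodal needs to engage these receptors. Lefty1 and Lefty2 are secreted antagonists that bind Nodal or its co-receptor, and since Nodal signalling switches them on they form a feedback loop. SOX2, OCT4 and NANOG are core transcription factors of pluripotent cells.

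The cells carry an FKBP degron on SOX2, OCT4 or NANOG, so that dTAG-13 directs the tagged protein to the proteasome. Homozygous clones were picked for the SOX2 and NANOG lines. NANOG-FKBP and SOX2-FKBP were made in E14 cells, with IB10 cells named for SOX2 targeting, and OCT4-FKBP in V6.5 cells. All were grown without serum in LIF with inhibitors of MEK and GSK3-β. Cells received 500 nM dTAG-13, or DMSO for the untreated state (NT). SOX2-FKBP cells were harvested at NT and 0.5, 1, 2, 6 and 24 h post depletion (hpd) and OCT4-FKBP cells at NT, 2, 6 and 24 hpd, with 2 libraries each. NANOG-FKBP cells have 2 NT libraries and 3 libraries at each of 2, 6 and 24 hpd. No label says whether libraries of a group came from separate cultures, and the methods give a further, independent clone for SOX2 without saying which libraries it made, so p-values measure the spread between these libraries, which may be technical. Levels are not compared between lines, because the tag and the background strain of the cells cannot be told apart. Changes against NT are compared between lines below, where the factor lost cannot be told apart from the line and its background either.

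Total counts lay between 1817191 and 17575631 per library. The treated NANOG libraries of replicate 2 stood apart, with 1817191 to 3272168 counts and 13.2% to 17.6% of them on the mitochondrial genome, so NANOG counts are also given without them. As a check of the cell type, 7 of 8 pluripotency genes had a promoter peak, with a median NT level of 240, 309 and 245 normalised counts in the SOX2, OCT4 and NANOG lines. Fibroblast genes had a promoter peak in 3 of 5, with medians of 56.5, 100 and 60.6. Primitive endoderm genes had a promoter peak in 3 of 4 (133, 251 and 211). Trophoblast genes had them in 4 of 4 (66.5, 124 and 84.7), as did mesoderm and neural genes (83.2, 138 and 141). Pou5f1 had no promoter peak, and that of Esrrb held 19.3, 10.2 and 17. The pluripotency median was thus the highest in each line, but single genes of other lists reached its level, such as Sox1 (202, 428 and 328). Normalised counts are fragment counts scaled to a library of 10050070 fragments.

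A member's change is the log2 fold change of its counts against NT of the same line, with its standard error, from edgeR's quasi-likelihood test adjusted by Benjamini-Hochberg across every peak in the fit. A member is called lost or gained at an adjusted p under 0.05. Of the 57 members, 55 had enough counts to be tested at 0.5 and 1 hpd of SOX2 and 54 in all other comparisons, and Tdgf1 +16.2 kb was tested in none. All times of a line share the same 2 NT libraries. The 4 sequences below are the 300 bp centred on the summits of 1 peak per locus, on the plus strand of mm10. They are the Lefty1 peak that lost most accessibility (chr1:180924731-180925030), the most accessible Lefty2 peak (chr1:180888686-180888985), the Nodal peak with a POU octamer (chr10:61394804-61395103) and a Tdgf1 peak lost early after OCT4 depletion (chr9:110938367-110938666). Capitals mark letters matched on either strand to the SOX-POU composite motif, the POU octamer (ATGCAAAT), the SOX core (ACAATG or ACAAAG) or the FOXH1 motif (TGTGGATT). FOXH1 is the DNA-binding partner of SMAD2/3 in Nodal signalling.
Lefty1 −10.1 kb: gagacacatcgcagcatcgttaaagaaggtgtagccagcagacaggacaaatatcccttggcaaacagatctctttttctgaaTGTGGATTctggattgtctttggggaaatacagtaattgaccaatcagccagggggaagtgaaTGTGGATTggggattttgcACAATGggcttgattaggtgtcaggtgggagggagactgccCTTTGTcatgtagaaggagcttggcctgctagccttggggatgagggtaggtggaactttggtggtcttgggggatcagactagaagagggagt
Lefty2 −4.3 kb: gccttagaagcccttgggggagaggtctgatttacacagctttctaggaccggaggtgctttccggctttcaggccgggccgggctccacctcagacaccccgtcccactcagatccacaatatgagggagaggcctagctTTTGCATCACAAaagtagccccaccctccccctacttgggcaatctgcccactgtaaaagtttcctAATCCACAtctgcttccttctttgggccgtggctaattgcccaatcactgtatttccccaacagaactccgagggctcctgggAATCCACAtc
Nodal −23.0 kb: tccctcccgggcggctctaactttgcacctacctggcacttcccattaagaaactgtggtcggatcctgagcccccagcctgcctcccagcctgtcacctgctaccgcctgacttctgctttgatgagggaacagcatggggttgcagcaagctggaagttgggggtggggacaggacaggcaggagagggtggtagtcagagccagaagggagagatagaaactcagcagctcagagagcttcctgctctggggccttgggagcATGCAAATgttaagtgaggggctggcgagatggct
Tdgf1 +7.6 kb: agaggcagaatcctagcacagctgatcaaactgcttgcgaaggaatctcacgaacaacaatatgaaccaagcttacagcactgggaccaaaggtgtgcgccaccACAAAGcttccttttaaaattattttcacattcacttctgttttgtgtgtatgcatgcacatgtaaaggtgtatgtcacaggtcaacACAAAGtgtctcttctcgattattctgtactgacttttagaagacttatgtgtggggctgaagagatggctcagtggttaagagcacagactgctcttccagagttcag

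Both strong Lefty peaks hold 2 copies of the FOXH1 letters, and 1 further member, Tdgf1 +18.4 kb, holds them too. Thus 3 of 57 members (5.26%) carry the FOXH1 letters in this window, against 1.13% of the 184793 peaks with sequence. The composite motif stood in 1 member, Lefty2 −4.3 kb, against 0.685% of all peaks, and the octamer in 1 member, Nodal −23.0 kb, against 2.63%. SOX letters stood in 14 members (24.6%), against 34.9% of all peaks, with 2 copies each in Lefty1 −10.1 kb and Tdgf1 +7.6 kb. A match of letters is a description and not a bound site.

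Across the 4 loci, accessibility fell at more members at 24 hpd than at earlier times in the SOX2 and OCT4 lines. SOX2 depletion left 11 of 54 members lost and 0 gained at 24 hpd, where 10.9% of all peaks were called lost and 4.87% gained. OCT4 depletion left 20 lost and 1 gained at 24 hpd, against 12.7% and 10.8% of all peaks. NANOG depletion left 1 lost and 0 gained, against 2.25% and 0.288%. The median log2 fold change of the members at 24 hpd was −0.18 for SOX2, −0.50 for OCT4 and 0.04 for NANOG, beside 0.06, −0.01 and 0.03 over all peaks. Without the SOX2 24 hpd library of replicate 2 the SOX2 losses numbered 6, and without the OCT4 24 hpd library of replicate 2 the OCT4 losses numbered 13. For the 0 gains after SOX2, 4 members were higher at an unadjusted p under 0.05 in edgeR and 0 were called by DESeq2, but 4 were called with the replicate number as a block. A fit of the SOX2 line by itself also called 4.

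Before 24 h few members moved. SOX2 depletion gave 0 lost and 0 gained at 0.5 hpd, 2 and 1 at 1 hpd, 2 and 1 at 2 hpd, and 3 and 1 at 6 hpd. Among all peaks 3.14% and 0.158% were called lost and gained at 0.5 hpd, 5.46% and 0.888% at 1 hpd, 5.07% and 0.574% at 2 hpd, and 6.83% and 1.18% at 6 hpd. At 0.5 hpd edgeR found 4 members lower and 2 higher at an unadjusted p under 0.05, DESeq2 called 0, and the block fit called 2 lost and 2 gained. With the block the gains at 1, 2 and 6 hpd numbered 6, 3 and 2. OCT4 depletion gave 2 lost and 2 gained at 2 hpd and 3 of each at 6 hpd, where 5.1% and 1.92%, then 7.97% and 4.12%, of all peaks were called. With the block the losses at 6 hpd numbered 7. The shares of members lost at 2 hpd were thus near or below those of all peaks in both lines.

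**Figure D1:**
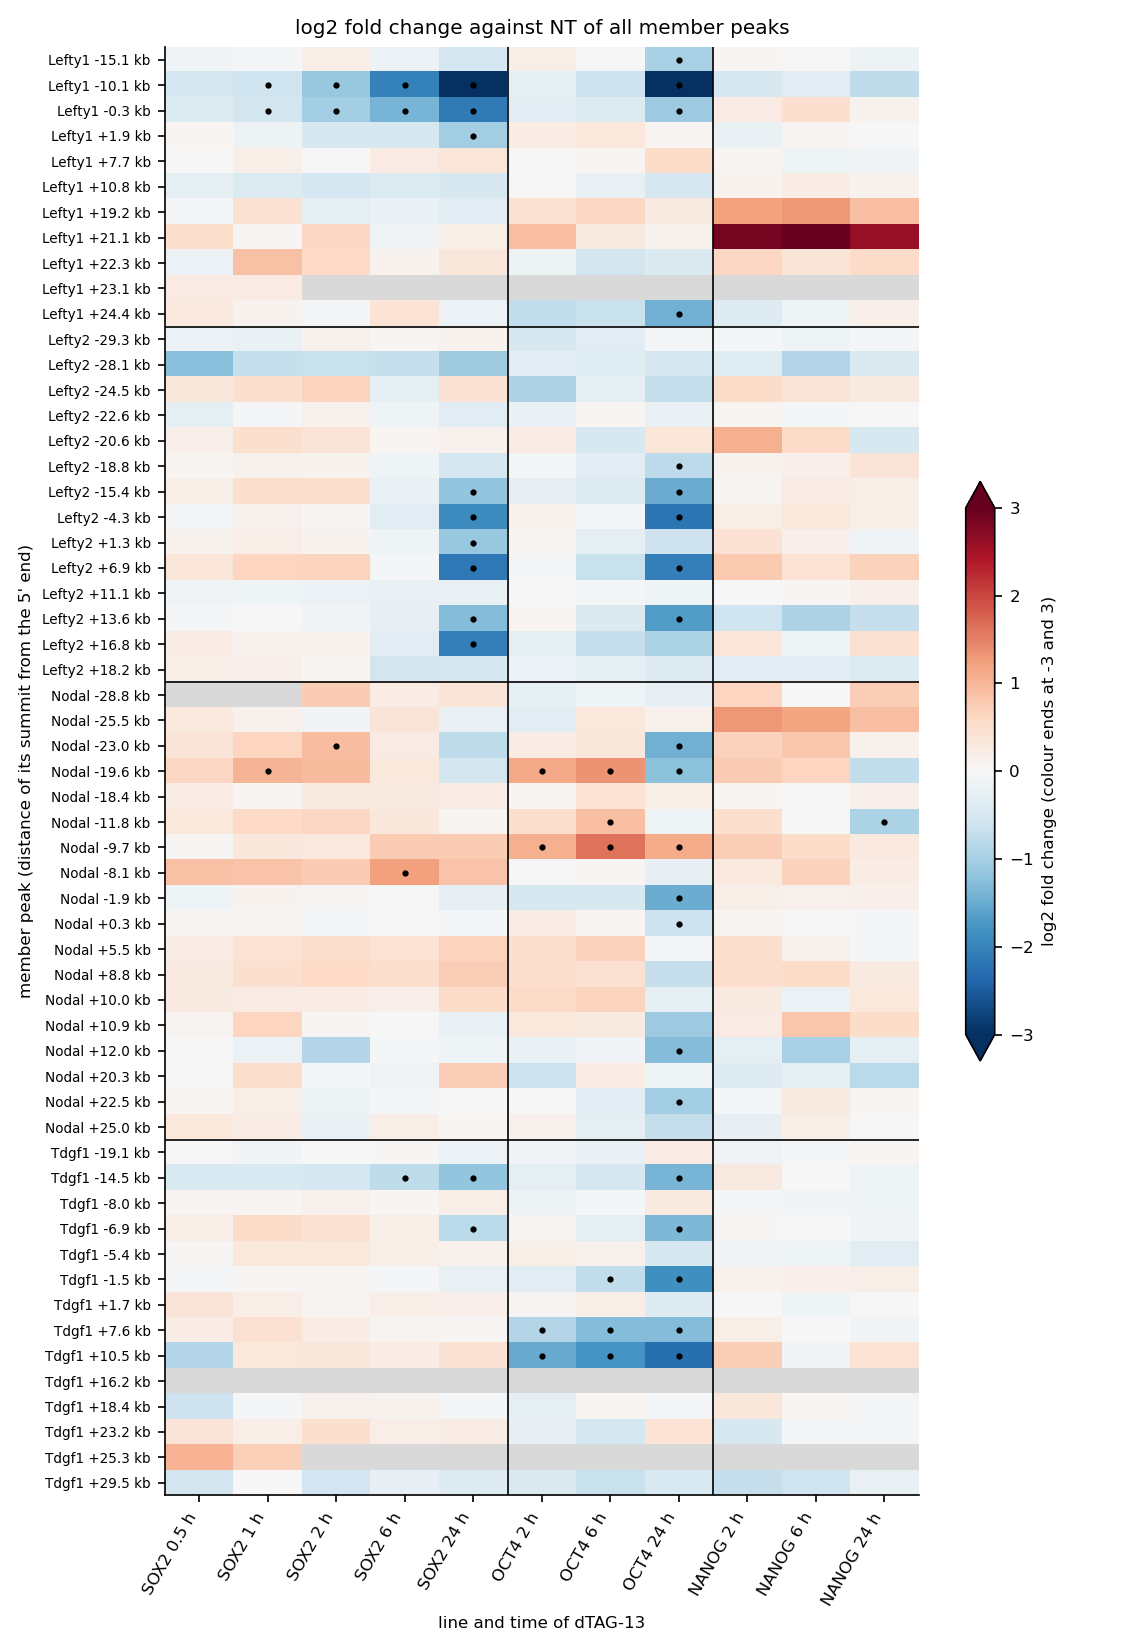
Log2 fold change against NT (colour scale) of each member peak (rows, by locus and distance from the 5′ end in kb) in 11 comparisons (columns), with a dot where the adjusted p was under 0.05 and grey where a peak was not tested. Dots are most frequent in the 24 h columns of SOX2 (11) and OCT4 (21), and the NANOG columns hold 1.

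The 2 losses called at 1 hpd and the 2 at 2 hpd of SOX2 were at Lefty1, and the block fit added Tdgf1 −14.5 kb at 1 hpd (−0.45, adjusted p = 0.0301). The Lefty1 gene (ENSMUSG00000038793.8) spans 180935022 to 180938400 on the plus strand of chromosome 1, and its strongest lost peak, Lefty1 −10.1 kb, is intergenic (chr1:180924545-180925798). In SOX2-FKBP cells this peak held 311 and 323 normalised counts at NT, 197 and 264 at 0.5 hpd, 227 and 207 at 1 hpd, 133 and 149 at 2 hpd, 78.6 and 74.7 at 6 hpd, and 13.3 and 24.2 at 24 hpd. Every treated library lay below both NT libraries, and 5.9% of the NT mean was left at 24 hpd. The log2 fold change was −0.53 ± 0.17 at 0.5 hpd (adjusted p = 0.0876), −0.59 ± 0.17 at 1 hpd (0.0253), −1.14 ± 0.29 at 2 hpd (0.0104), −2.03 ± 0.31 at 6 hpd (6.51e-06) and −4.04 ± 0.37 at 24 hpd (1.24e-10). With the replicate block the change at 0.5 hpd was called too (adjusted p = 0.00343). Under DESeq2 the 1 hpd change was not called (−0.60, adjusted p = 0.115). Leaving out any of the 4 libraries ended the 1 hpd call (adjusted p from 0.0812 to 0.161), and leaving out replicate 1 at 2 hpd ended that call (−1.15, adjusted p = 0.103), while the 6 and 24 hpd calls held without each library in turn.

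In OCT4-FKBP cells the same peak fell late. It held 399 and 307 at NT, 330 and 243 at 2 hpd, 283 and 178 at 6 hpd, and 35.7 and 24.7 at 24 hpd. The groups overlapped at 2 hpd and were apart at 6 and 24 hpd. The log2 fold change was −0.30 ± 0.28 at 2 hpd (adjusted p = 0.728), −0.61 ± 0.28 at 6 hpd (0.182) and −3.52 ± 0.37 at 24 hpd (2.26e-09), and the 6 hpd change was called with the replicate block (adjusted p = 0.00195). The change from 2 to 24 hpd was −3.22 ± 0.37 after OCT4 (adjusted p = 1.57e-07) and −2.90 ± 0.38 after SOX2 (1.97e-05).

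The difference between the lines was tested directly. SOX2 minus OCT4, the change of Lefty1 −10.1 kb differed by −0.85 ± 0.40 at 2 hpd (adjusted p = 0.492), −1.42 ± 0.41 at 6 hpd (0.0504) and −0.53 ± 0.55 at 24 hpd (0.732). With the replicate block the 2 and 6 hpd differences were called (adjusted p = 0.0209 and 2.96e-05). In NANOG-FKBP cells the peak held 237 and 298 at NT and 101, 209 and 191 at 24 hpd, with all 24 hpd libraries below NT, but the change of −0.76 ± 0.28 was not called (adjusted p = 0.194). The SOX2 and OCT4 changes at 24 hpd differed from that of NANOG by −3.28 ± 0.47 and −2.76 ± 0.47 (adjusted p = 4.31e-06 and 7.23e-05).

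The Lefty1 promoter peak, Lefty1 −0.3 kb (chr1:180933298-180935287, covering the 5′ end), fell with the upstream peak after SOX2 loss but less far. It held 221 and 257 at NT, 164 and 210 at 0.5 hpd, 167 and 169 at 1 hpd, 108 and 123 at 2 hpd, 85.4 and 91.9 at 6 hpd, and 60.2 and 48.3 at 24 hpd. Again every treated library lay below both NT libraries. The log2 fold change was −0.55 ± 0.17 at 1 hpd (adjusted p = 0.0466), −1.02 ± 0.27 at 2 hpd (0.0143), −1.40 ± 0.28 at 6 hpd (0.000363) and −2.11 ± 0.29 at 24 hpd (6.76e-07). The 1 hpd call was lost without any of the 4 libraries (adjusted p from 0.0862 to 0.352) and under DESeq2 (0.208), and the 2 hpd call without replicate 1 at 2 hpd (−1.01, adjusted p = 0.124) or NT replicate 2 (−0.99, adjusted p = 0.09).

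After OCT4 loss the promoter peak held 300 and 204 at NT and 141 and 93.8 at 24 hpd. The groups did not overlap, and the change was −1.08 ± 0.28 (adjusted p = 0.00356). It was not called without OCT4 24 hpd replicate 2 (−0.82, adjusted p = 0.0855) or NT replicate 1 (−0.78, adjusted p = 0.0786). The SOX2 and OCT4 changes at 24 hpd differed by −1.04 ± 0.40 (adjusted p = 0.193, and 0.011 with the replicate block). After NANOG loss it stood at 156 and 243 at NT and at 170, 247 and 240 at 24 hpd, a change of 0.10 ± 0.26 (adjusted p = 0.951).

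Of the other Lefty1 members, Lefty1 +1.9 kb, in an exon of the gene, fell after SOX2 loss from 77.5 and 103 at NT to 51 and 33.8 at 24 hpd (−1.05 ± 0.28, adjusted p = 0.00664), with no overlap. That call was lost without 24 hpd replicate 2 (−0.78, adjusted p = 0.153) or NT replicate 2 (−0.90, 0.0842). After OCT4 loss it held 99.8 and 75.6 at NT and 93.1 and 90.5 at 24 hpd (0.09 ± 0.26, adjusted p = 0.849), and the difference between the lines was −1.14 ± 0.39 (0.109, and 0.0184 with the replicate block). Lefty1 −15.1 kb and Lefty1 +24.4 kb fell at 24 hpd of OCT4 (−0.97 ± 0.29 and −1.45 ± 0.42, adjusted p = 0.0123 and 0.00902). The first call was lost without 24 hpd replicate 1 (−0.89, adjusted p = 0.121) or NT replicate 1 (−0.87, 0.0667), and the second without 24 hpd replicate 2 (−1.23, 0.0943) or NT replicate 2 (−1.38, 0.0516). In total 3 of 10 tested Lefty1 members were lost at 24 hpd of SOX2 and 4 at 24 hpd of OCT4.

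**Figure D2:**
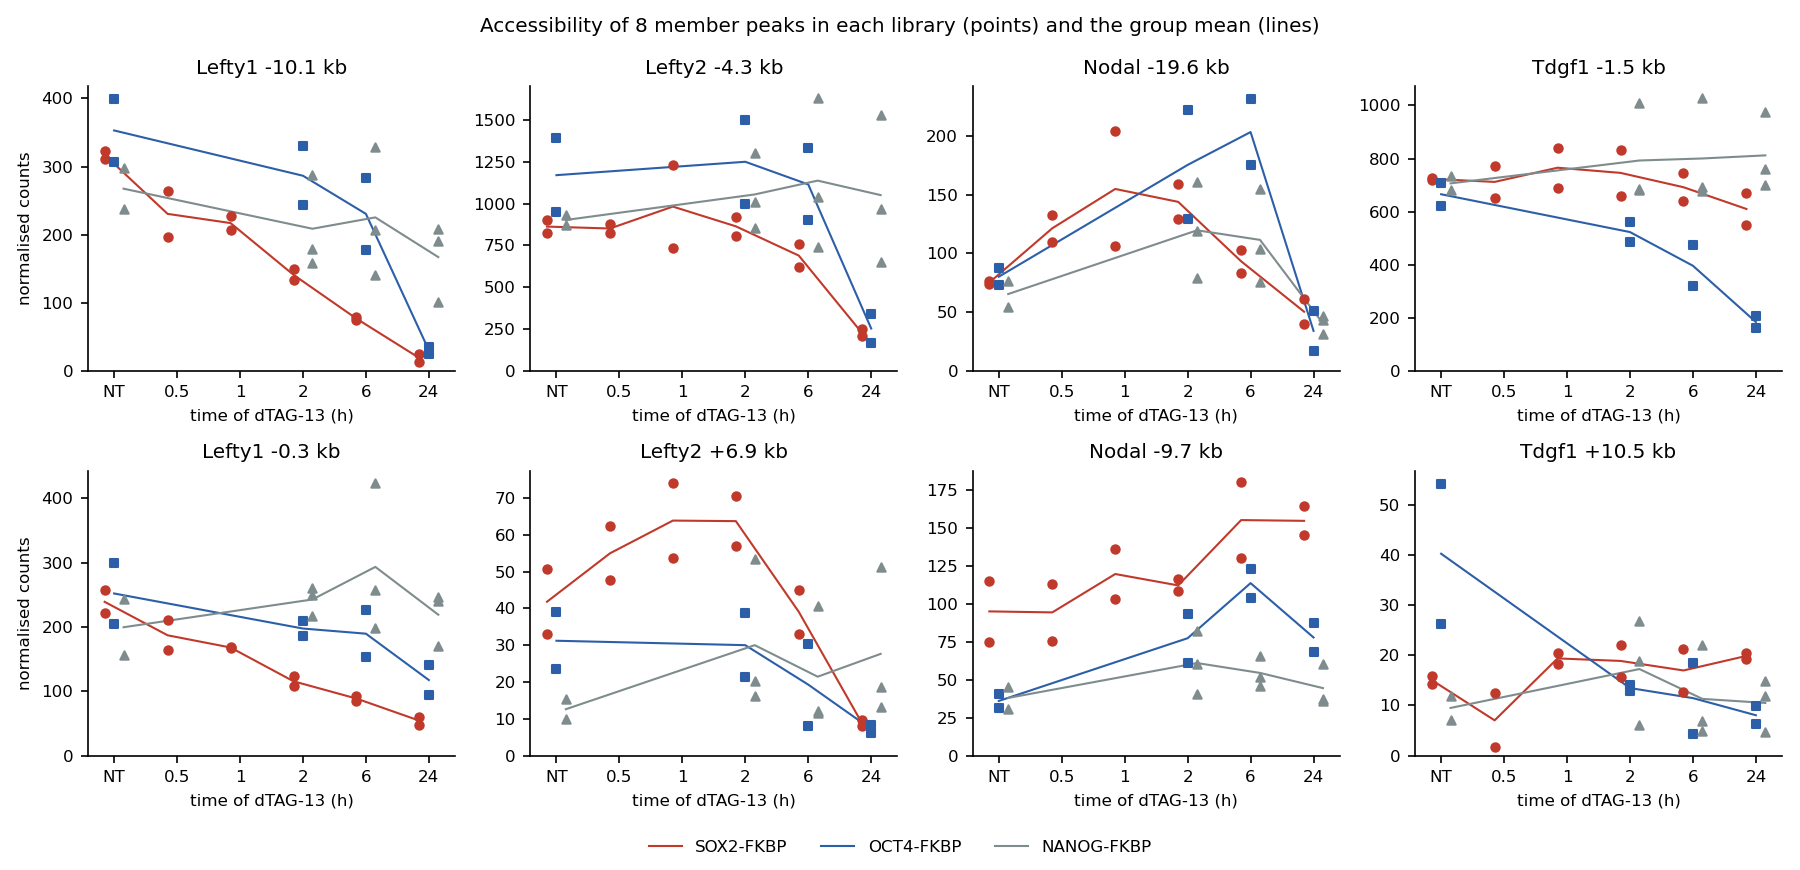
Normalised counts per library (points) and group means (lines) of 8 member peaks, 2 per locus, against hours of depletion in the SOX2, OCT4 and NANOG lines. Lefty1 −10.1 kb falls from the first hours of SOX2 loss, Lefty2 −4.3 kb was called lower at 24 h in the SOX2 and OCT4 lines and at no earlier time, Tdgf1 −1.5 kb falls in the OCT4 line, and Nodal −19.6 kb rises and then falls in the OCT4 line.

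Lefty2 (ENSMUSG00000066652.5, 180893108 to 180899103 on the plus strand of chromosome 1) lost accessibility late. In the main edgeR fit none of its 14 members was called at any earlier time in any line, and at 24 hpd 6 were lost after SOX2 and 5 after OCT4. The block fit called Lefty2 +6.9 kb lost at 6 hpd of OCT4 (−0.75, adjusted p = 0.0472), and Lefty2 +1.3 kb at 24 hpd (−0.61, 0.0157). No Lefty2 peak covers its 5′ end. The most accessible, Lefty2 −4.3 kb (chr1:180888100-180890174, intergenic), held 826 and 899 at NT of SOX2, 920 and 808 at 2 hpd, 759 and 619 at 6 hpd, and 249 and 207 at 24 hpd. Only the 6 and 24 hpd libraries all lay below NT among these times. The log2 fold change was 0.03 ± 0.31 at 2 hpd (adjusted p = 0.991), −0.31 ± 0.31 at 6 hpd (0.699) and −1.90 ± 0.33 at 24 hpd (2.72e-05).

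OCT4 loss moved Lefty2 −4.3 kb at the same time. It held 1390 and 950 at NT, 1500 and 1000 at 2 hpd, 1330 and 899 at 6 hpd, and 337 and 169 at 24 hpd. The groups overlapped until 6 hpd and were apart at 24 hpd, with a change of −2.19 ± 0.33 (adjusted p = 2.9e-06). From 2 to 24 hpd it fell by 1.92 ± 0.32 on the log2 scale after SOX2 (adjusted p = 0.000489) and by 2.29 ± 0.33 after OCT4 (6.32e-06). The 24 hpd calls of both lines held without each library in turn. The changes of the 2 lines at 24 hpd differed by 0.29 ± 0.45 (adjusted p = 0.836).

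After NANOG loss Lefty2 −4.3 kb held 871 and 933 at NT and 653, 1530 and 969 at 24 hpd, a change of 0.18 ± 0.29 (adjusted p = 0.905). The high library is the shallow replicate 2. The SOX2 and OCT4 changes differed from that of NANOG by −2.08 ± 0.43 and −2.37 ± 0.44 (adjusted p = 0.00105 and 0.000213).

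Among the weaker Lefty2 members, Lefty2 +6.9 kb, just past the 3′ end of the gene, fell in both lines. After SOX2 it held 32.9 and 50.7 at NT and 8.16 and 9.66 at 24 hpd (log2 fold change −2.15 ± 0.54, adjusted p = 0.00379), and after OCT4 38.9 and 23.5 at NT and 6.2 and 8.23 at 24 hpd (−2.05 ± 0.64, 0.0154). Groups did not overlap in either line. The OCT4 call was lost without 24 hpd replicate 1 (−1.84, adjusted p = 0.154), 24 hpd replicate 2 (−2.26, 0.0628) or NT replicate 1 (−1.68, 0.0927). Lefty2 −15.4 kb and Lefty2 +13.6 kb were lost in both lines too (−1.18 and −1.31 after SOX2, −1.48 and −1.67 after OCT4), Lefty2 +1.3 kb inside the gene and Lefty2 +16.8 kb after SOX2 (−1.14 and −2.05), and Lefty2 −18.8 kb after OCT4 (−0.78). Single libraries or the choice of fit decided several of these calls. With all libraries kept, the OCT4 call of Lefty2 −18.8 kb was lost under DESeq2 (−0.71, adjusted p = 0.0863). The same call was lost with DESeq2 size factors (−0.71, 0.056) and with only the lines compared (−0.76, 0.0552). After SOX2, that of Lefty2 −15.4 kb was lost without 24 hpd replicate 2 (−0.86, adjusted p = 0.238) or NT replicate 1 (−1.07, 0.163), that of Lefty2 +13.6 kb without any of the 4 libraries (−1.44 to −1.29, 0.0527 to 0.091), and that of Lefty2 +16.8 kb without 24 hpd replicate 1 (−1.81, 0.145), 24 hpd replicate 2 (−2.41, 0.0635) or NT replicate 2 (−1.42, 0.277). After OCT4, that of Lefty2 −18.8 kb was lost without 24 hpd replicate 1 (−0.95, 0.0695), 24 hpd replicate 2 (−0.63, 0.202) or NT replicate 1 (−0.54, 0.246).

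**Figure D3:**
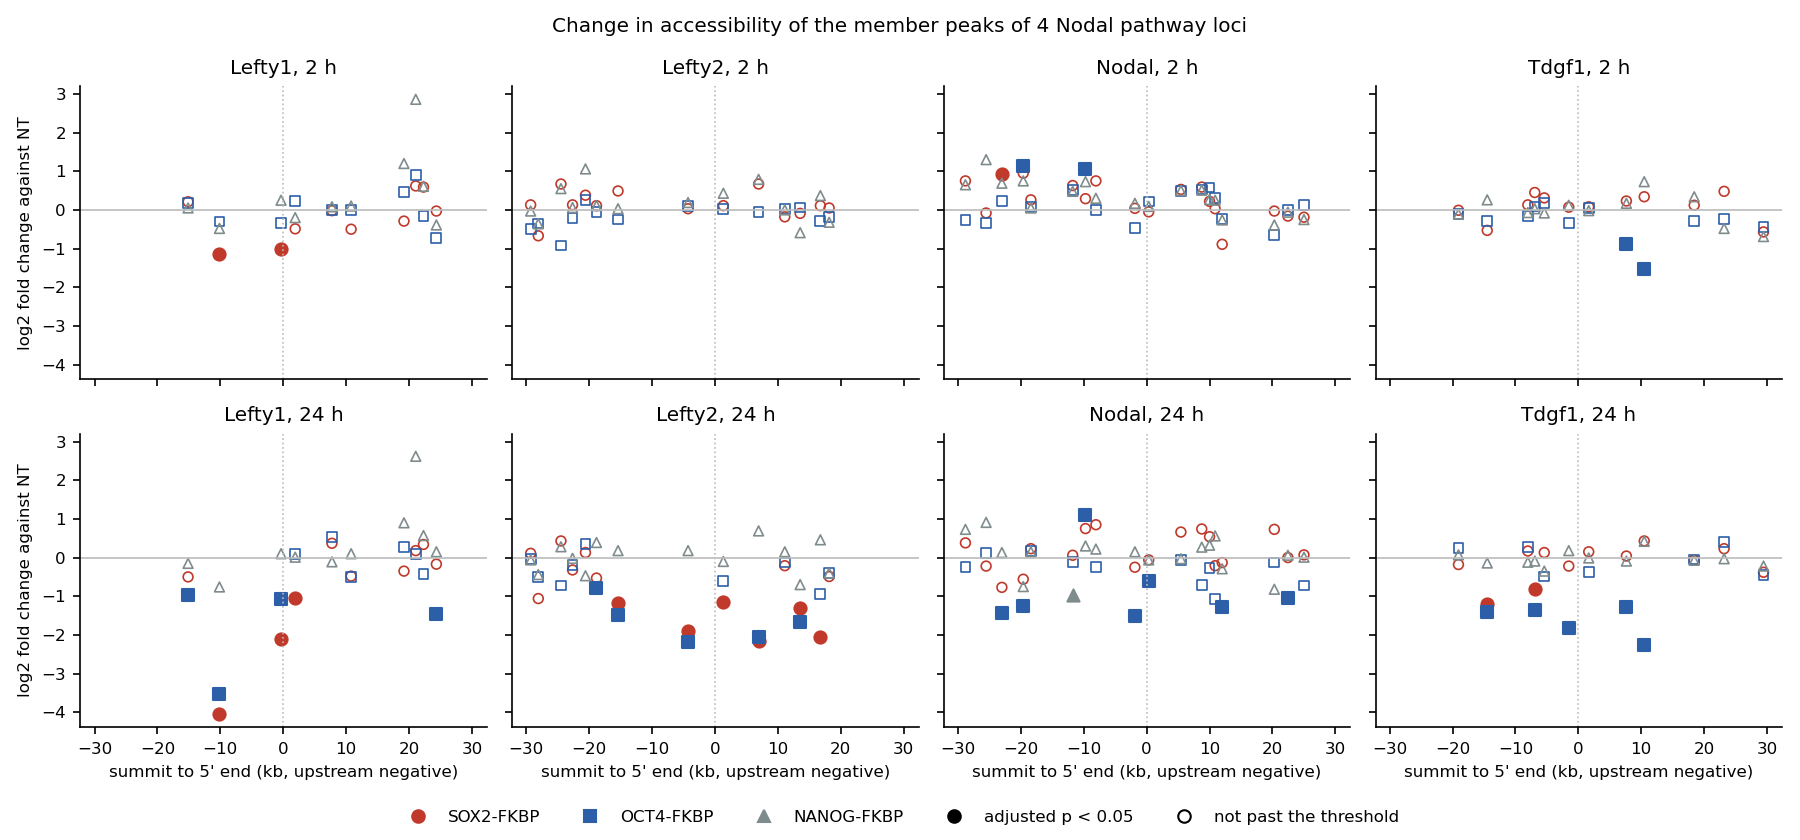
Log2 fold change against NT (vertical axis) of each member by the distance of its summit from the 5′ end of its gene in kb (horizontal axis), for the 4 loci at 2 and 24 h in the 3 lines, with filled points where the adjusted p was under 0.05. At 24 h the lowest points are the SOX2 and OCT4 values of Lefty1 −10.1 kb, −4.04 and −3.52.

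Nodal (ENSMUSG00000037171.6, 61417972 to 61425338 on the plus strand of chromosome 10) had members that gained accessibility. The 9 gains called in the main edgeR fit across the SOX2 and OCT4 time courses were all at this locus, in 5 intergenic peaks between 8.1 and 23.0 kb upstream of the gene. Some peaks thus count at more than 1 time. At 1, 2 and 6 hpd of SOX2 5.88%, 5.56% and 5.56% of the Nodal members tested were gained, beside 0.888%, 0.574% and 1.18% of all peaks. At 2, 6 and 24 hpd of OCT4 the shares were 11.1%, 16.7% and 5.56%, beside 1.92%, 4.12% and 10.8%. The same comparisons share their NT libraries, so these calls are not independent of each other. Under the block, gains were also called at 3 members outside this locus, Lefty1 +22.3 kb and Tdgf1 −6.9 kb at 1 hpd of SOX2 (0.90 and 0.55, adjusted p = 0.0497 and 0.0113) and Lefty1 +7.7 kb at 24 hpd of OCT4 (0.52, 0.0288).

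Nodal −19.6 kb, an intergenic peak, rose and then fell. In OCT4-FKBP cells it held 72.8 and 87.6 at NT, 129 and 222 at 2 hpd, 175 and 232 at 6 hpd, and 17.1 and 51 at 24 hpd. The 2 and 6 hpd libraries all lay above NT and the 24 hpd libraries below. The log2 fold change was 1.14 ± 0.29 (adjusted p = 0.00893), 1.35 ± 0.29 (0.000809) and −1.24 ± 0.37 (0.0119) at these times, and the change from 2 to 24 hpd was −2.38 ± 0.36 (1.18e-05). Without OCT4 2 hpd replicate 2 or NT replicate 1 the 2 hpd call was lost (0.70 and 1.02, adjusted p = 0.328 and 0.111), and without 24 hpd replicate 1 or NT replicate 2 the 24 hpd call was lost (−0.63 and −1.10, adjusted p = 0.372 and 0.0819).

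In SOX2-FKBP cells Nodal −19.6 kb held 76.6 and 73.9 at NT, 110 and 133 at 0.5 hpd, 204 and 106 at 1 hpd, 159 and 129 at 2 hpd, 103 and 83.7 at 6 hpd, and 61.2 and 39.6 at 24 hpd. All libraries from 0.5 to 6 hpd lay above NT and both at 24 hpd below. The gain was called at 1 hpd (1.02 ± 0.23, adjusted p = 0.00311), but not without SOX2 1 hpd replicate 1 (0.45, adjusted p = 0.545) or NT replicate 1 (1.05, adjusted p = 0.0597). At 0.5 and 2 hpd the changes were 0.62 ± 0.24 and 0.95 ± 0.31 (adjusted p = 0.206 and 0.0642), and both were called with the replicate block (0.0275 and 0.000776). From 2 to 24 hpd the peak fell by 1.51 ± 0.32 on the log2 scale (adjusted p = 0.00495). NANOG libraries stood at 76.5 and 54.4 at NT, 119, 161 and 79.3 at 2 hpd and 43, 46.5 and 31.6 at 24 hpd. Neither change was called (0.75 ± 0.33 and −0.75 ± 0.35, adjusted p = 0.541 and 0.393). All 2 hpd NANOG libraries lay above NT, and the replicate block called that gain (0.90, adjusted p = 0.0343).

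Nodal −9.7 kb stayed up after OCT4 loss. It held 31.3 and 40.6 at NT, 93.3 and 61.2 at 2 hpd, 123 and 104 at 6 hpd, and 68.3 and 87.2 at 24 hpd. Every treated library was above NT, by 1.07 ± 0.29 (adjusted p = 0.0147), 1.64 ± 0.28 (3.24e-05) and 1.11 ± 0.31 (0.00708) on the log2 scale. The 2 hpd call was lost without 2 hpd replicate 1 (0.76, adjusted p = 0.304) or NT replicate 1 (0.91, 0.163), and the 24 hpd call without 24 hpd replicate 2 (0.92, 0.0883) or NT replicate 1 (0.94, 0.0658). After SOX2 loss it held 74.8 and 115 at NT, 180 and 130 at 6 hpd and 164 and 145 at 24 hpd, with changes of 0.75 ± 0.27 at each of these times (adjusted p = 0.0894 and 0.0529). Both were called with the replicate block (0.00464 and 0.00262).

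Nodal −23.0 kb, which holds the octamer shown above, rose at 2 hpd of SOX2, with 67.7 and 104 at NT, 173 and 143 at 2 hpd, and 48 and 49.3 at 24 hpd. The 2 hpd libraries were above NT and the 24 hpd libraries below. The 2 hpd gain of 0.92 ± 0.27 (adjusted p = 0.0323) was lost without 2 hpd replicate 1 (0.70, adjusted p = 0.4), 2 hpd replicate 2 (0.97, 0.0954) or NT replicate 1 (0.53, 0.646) and under DESeq2 (0.0585). At 24 hpd the change was −0.77 ± 0.30 after SOX2 (adjusted p = 0.0742, and 0.0113 with the replicate block). After OCT4 it held 157 and 122 at NT and 58.9 and 42.8 at 24 hpd, a call of −1.43 ± 0.30 (adjusted p = 0.000377) that held without each library in turn. NANOG libraries held 76.5 and 83.3 at NT, 112, 194 and 120 at 2 hpd, and 101, 203 and 145 at 6 hpd. All of these treated libraries lay above NT. The changes were not called (adjusted p = 0.469 and 0.222), but both were with the replicate block (0.78 and 0.84, adjusted p = 0.0455 and 0.0163).

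Nodal −11.8 kb was the sole member called after NANOG loss without the replicate block. It held 154 and 128 at NT and 69.5, 69.8 and 79.1 at 24 hpd, with no overlap. The change was −0.96 ± 0.25 (adjusted p = 0.0207), and the call was lost without NANOG 24 hpd replicate 1 (−0.91, adjusted p = 0.109), 24 hpd replicate 3 (−1.03, 0.0602) or NT replicate 1 (−0.80, 0.294). In OCT4-FKBP cells the peak rose from 132 and 136 at NT to 229 and 268 at 6 hpd (0.90 ± 0.23, adjusted p = 0.00466) and stood at 124 and 120 at 24 hpd. The 6 hpd call was lost without 6 hpd replicate 2 (0.80). After SOX2 loss all libraries from 0.5 to 6 hpd lay above NT, with 167 and 177 at NT and 290 and 234 at 2 hpd. The SOX2 changes at 1 and 2 hpd were called only with the replicate block (0.59 and 0.64, adjusted p = 0.00163 and 0.00921). All NANOG libraries at 2 hpd (177, 247 and 197) lay above NT as well. Nodal −8.1 kb was gained at 6 hpd of SOX2, from 21.4 and 26.1 to 57.3 and 50.9 (1.22 ± 0.31, adjusted p = 0.00672), a call lost without 6 hpd replicate 1 (1.08) or NT replicate 1 (0.99). Every treated SOX2 library of this peak lay above NT, from 0.5 hpd on. The block fit also called the gain at 0.5 and 1 hpd (0.88 and 0.84, adjusted p = 0.041 and 0.0399).

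Near the Nodal 5′ end, peaks fell after OCT4 loss at 24 hpd. The most accessible, Nodal −1.9 kb (chr10:61415476-61416780, intergenic), held 555 and 473 at NT, 372 and 368 at 2 hpd, 370 and 357 at 6 hpd, and 186 and 171 at 24 hpd. Each treated library was below NT, and the change reached −1.5 ± 0.27 (adjusted p = 5.2e-05), which held without each library in turn. At 2 and 6 hpd it was −0.47 ± 0.25 and −0.49 ± 0.25 (adjusted p = 0.388 and 0.254), and both were called with the replicate block (0.0453 and 0.0201). SOX2 libraries held 443 and 409 at NT and 415 and 291 at 24 hpd (−0.25 ± 0.26, adjusted p = 0.576). The SOX2 and OCT4 changes at 24 hpd differed by 1.25 ± 0.37 (adjusted p = 0.0575, and 0.000287 with the replicate block).

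The Nodal promoter peak, Nodal +0.3 kb (chr10:61417246-61418934, summit in a coding exon), held 383 and 374 at NT and 279 and 211 at 24 hpd of OCT4. The groups did not overlap, and the loss of −0.61 ± 0.22 was just past the threshold (adjusted p = 0.0379). It was lost without 24 hpd replicate 2 (−0.42, adjusted p = 0.277), NT replicate 1 (−0.60, 0.11) or NT replicate 2 (−0.65, 0.102), and under DESeq2 (−0.53, 0.0757). After SOX2 it held 338 and 277 at NT and 290 and 292 at 24 hpd (−0.06 ± 0.22, adjusted p = 0.888). Inside the neighbouring gene Eif4ebp2, Nodal +22.5 kb fell at 24 hpd of OCT4 from 139 and 133 at NT to 63.6 and 65.8 (−1.05 ± 0.25, adjusted p = 0.00166). In all, 6 of 18 Nodal members were lost and 1 gained at 24 hpd of OCT4, and 0 of 18 were called at 24 hpd of SOX2 in the main edgeR fit or by DESeq2. Under the block 5 were called at 24 hpd of SOX2. These were Nodal −23.0 kb, which was lower (adjusted p = 0.0113), and Nodal −9.7, −8.1, +5.5 and +8.8 kb, which were higher (0.00262, 0.0278, 0.0195 and 0.00595).

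In the main edgeR fit, the 3 members whose change differed by test between SOX2 and OCT4 were at Tdgf1 (ENSMUSG00000032494.12, 110939603 to 110946158 on the minus strand of chromosome 9). With no count filter, with total counts or with only the lines compared, 2 members differed at 6 hpd in place of 1. With the block the lines also differed at Lefty1 −10.1, −0.3, +1.9 and +24.4 kb and at Nodal −19.6, −1.9, +8.8 and +22.5 kb, at 1 or more of 2, 6 and 24 hpd, and at Tdgf1 −1.5 kb at 6 hpd and Tdgf1 +10.5 kb at 2 and 6 hpd. The most accessible Tdgf1 peak, Tdgf1 −1.5 kb (chr9:110946048-110948360), covers the 5′ end. In OCT4-FKBP cells it held 709 and 622 at NT, 562 and 484 at 2 hpd, 474 and 318 at 6 hpd, and 161 and 207 at 24 hpd, all treated libraries below NT. The log2 fold change was −0.34 ± 0.23 (adjusted p = 0.559), −0.74 ± 0.24 (0.0291) and −1.83 ± 0.25 (5.68e-07). With only the lines compared in the fit, the 6 hpd change was not called (−0.75, adjusted p = 0.0931). The 6 hpd call was lost without 6 hpd replicate 2 (−0.45, adjusted p = 0.381), NT replicate 1 (−0.65, 0.173) or NT replicate 2 (−0.80, 0.0814), while the 24 hpd call held without each library.

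SOX2 loss left Tdgf1 −1.5 kb at 671 and 549 at 24 hpd, against 728 and 719 at NT and 745 and 639 at 6 hpd. The 24 hpd libraries lay below NT, with a change of −0.22 ± 0.24 (adjusted p = 0.584). NANOG libraries held 680 and 733 at NT and 700, 977 and 759 at 24 hpd (0.18 ± 0.22, adjusted p = 0.863). SOX2 minus OCT4, the 24 hpd change differed by 1.61 ± 0.34 (adjusted p = 0.00417), and OCT4 minus NANOG by −2.01 ± 0.34 (5.01e-05), and both calls held when each library was left out in turn.

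Past the 3′ end of the gene, Tdgf1 +7.6 kb (chr9:110937260-110939319, intergenic) fell early after OCT4 loss. It held 126 and 92.2 at NT, 65.5 and 51.9 at 2 hpd, 47.6 and 39.5 at 6 hpd, and 54.3 and 32.9 at 24 hpd, with no overlap with NT. The changes were −0.89 ± 0.27 (adjusted p = 0.0379), −1.31 ± 0.28 (0.000606) and −1.29 ± 0.31 (0.00173). The 2 hpd call was lost under DESeq2 (0.0882) and without 2 hpd replicate 1 (−1.05, adjusted p = 0.0854), 2 hpd replicate 2 (−0.70, 0.334) or NT replicate 1 (−0.66, 0.346), and the 24 hpd call without 24 hpd replicate 2 (−0.98, 0.0588).

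After SOX2 loss Tdgf1 +7.6 kb held 91.7 and 89.9 at NT, 93 and 117 at 2 hpd, 80.6 and 109 at 6 hpd, and 110 and 74.4 at 24 hpd. The groups overlapped at 6 and 24 hpd. SOX2 minus OCT4, the change differed by 1.12 ± 0.39 at 2 hpd (adjusted p = 0.184), 1.39 ± 0.39 at 6 hpd (0.0387) and 1.33 ± 0.42 at 24 hpd (0.0775), and the replicate block called the 2 and 24 hpd differences as well (0.00898 and 0.0033). Under DESeq2 the 6 hpd difference was not called (1.40, adjusted p = 0.0699). The 6 hpd call was lost without any of 7 of the 8 libraries (differences from 1.06 to 1.52, adjusted p from 0.0595 to 0.349), NT replicate 2 of OCT4 being the exception.

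The faint peak Tdgf1 +10.5 kb, also intergenic, fell after OCT4 loss as well. In OCT4-FKBP cells it held 54.1 and 26.3 at NT, 12.9 and 14 at 2 hpd, 18.5 and 4.39 at 6 hpd, and 6.2 and 9.87 at 24 hpd, all below NT. The changes were −1.52 ± 0.42 (adjusted p = 0.0181), −1.77 ± 0.42 (0.00229) and −2.26 ± 0.55 (0.00201). Without NT replicate 1 they were −0.95 and −1.21 at 2 and 6 hpd (adjusted p = 0.382 and 0.121), the 2 hpd call was also lost without either 2 hpd library (−1.46 and −1.57, 0.129 and 0.134), the 6 hpd call without 6 hpd replicate 2 (−1.04, 0.162) and the 24 hpd call without 24 hpd replicate 1 (−1.94, 0.0643). With all libraries kept, the 2 hpd call was lost under DESeq2 (−1.54, adjusted p = 0.0792) and with only the lines compared (−1.53, 0.0736). SOX2 libraries held 14.2 and 15.9 at NT and 20.4 and 19.3 at 24 hpd. The difference between the lines at 24 hpd was 2.68 ± 0.76 in edgeR (adjusted p = 0.0418) and 2.66 in DESeq2, where it was not called (0.0888). The edgeR call was lost without 7 of the 8 libraries, NT replicate 2 of OCT4 being the exception.

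Upstream, within the neighbouring gene Lrrc2, Tdgf1 −14.5 kb and Tdgf1 −6.9 kb were lost at 24 hpd in both lines. Tdgf1 −14.5 kb went from 216 and 238 to 107 and 88.9 after SOX2 (−1.19 ± 0.25, adjusted p = 0.000418) and from 130 and 165 to 35.7 and 75.7 after OCT4 (−1.40 ± 0.27, 0.000165). Tdgf1 −6.9 kb went from 118 and 107 to 66.3 and 60.9 (−0.81 ± 0.24, adjusted p = 0.0138) after SOX2 and from 75.3 and 77.8 to 29.5 and 29.6 after OCT4 (−1.35 ± 0.28, 0.000355). Groups did not overlap in these 4 comparisons. The SOX2 call of Tdgf1 −6.9 kb was lost without 24 hpd replicate 1 (−0.91, adjusted p = 0.0513), 24 hpd replicate 2 (−0.75, 0.111) or NT replicate 1 (−0.79, 0.0997), and the other 3 held without each library. Tdgf1 −14.5 kb was also called at 6 hpd of SOX2 (−0.77 ± 0.24, adjusted p = 0.0361), but not with total counts (−0.76, 0.0643). That call was also lost without any 1 of the 4 libraries. Every treated SOX2 and OCT4 library of Tdgf1 −14.5 kb lay below NT of its line. Besides 1 hpd of SOX2, the block fit called it lost at 0.5 hpd of SOX2 (−0.45, adjusted p = 0.0425) and 6 hpd of OCT4 (−0.5, 0.0438). The main fit called neither (0.175 and 0.191). Tdgf1 −5.4 kb, 29 bp from the 5′ end of Lrrc2, stood at 281 and 216 at 24 hpd of SOX2 against 246 and 213 at NT (0.13 ± 0.22, adjusted p = 0.753). In OCT4-FKBP cells it held 143 and 162 at NT and 112 and 104 at 24 hpd, with no overlap. That change was not called in the main fit (adjusted p = 0.146) but was with the replicate block (−0.5, 0.0368).

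**Figure D4:**
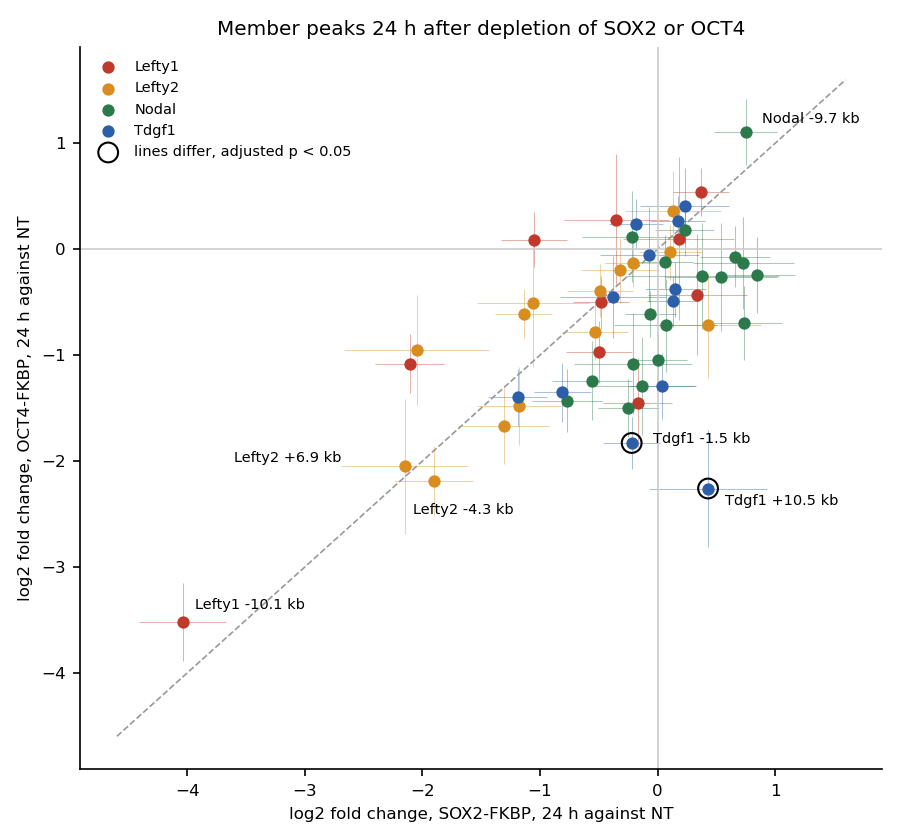
Log2 fold change at 24 h after SOX2 loss (horizontal axis) against that after OCT4 loss (vertical axis) for the 54 members tested, with standard errors as bars, a dashed line of equal change and circles where the difference between lines passed the test in the main edgeR fit. Tdgf1 −1.5 kb and Tdgf1 +10.5 kb are circled, and Lefty1 −10.1 kb lies lowest in both lines.

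In the main edgeR fit, SOX2 and OCT4 changes differed at 0 members at 2 hpd, 1 at 6 hpd and 2 at 24 hpd, where 1.57%, 2.73% and 2.77% of all peaks differed. For the 0 at 2 hpd, 4 members had an unadjusted p under 0.05 in edgeR and DESeq2 called 0, and with the replicate block the counts were 3, 7 and 8. SOX2 and NANOG differed at 0 members at 2 hpd (2 at an unadjusted p under 0.05, 0 by DESeq2) and 6 at 24 hpd, against 1.75% and 6.78% of all peaks. OCT4 and NANOG differed at 0 members at 2 hpd (4 unadjusted, 0 by DESeq2) and 13 at 24 hpd, against 2.52% and 8.88%. In all 19 differences from NANOG at 24 hpd the NANOG value was the higher, and without the treated NANOG libraries of replicate 2 they numbered 5 and 10. Without SOX2 24 hpd replicate 1 or SOX2 NT replicate 2 the SOX2 and NANOG lines differed at 3 members, and without OCT4 24 hpd replicate 2 the OCT4 and NANOG lines differed at 5.

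NANOG loss moved little else at these loci. At 2 and 6 hpd 0 members were lost or gained in edgeR and in DESeq2, with 0 lower and 7 higher at an unadjusted p under 0.05 at 2 hpd and 1 lower and 4 higher at 6 hpd. The replicate block called 2 gains at 2 hpd, Nodal −23.0 and −19.6 kb, and 1 at 6 hpd, Nodal −23.0 kb. Of all peaks, 0.939% were lost and 0.0162% gained at 2 hpd, and 1.08% and 0.0367% at 6 hpd. The same 0 and 0 calls, and the 1 loss at 24 hpd, were found without the treated libraries of replicate 2. Among the NANOG changes at 6 hpd that of the faint peak Lefty1 +21.1 kb was 3.28 ± 0.99, from 1.42 and 0 normalised counts at NT to 7.73, 7.38 and 12.1, and it was not called (adjusted p = 0.114).

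From 2 to 24 hpd, 10 members were lower at the later time after SOX2 and 16 after OCT4, and 0 were higher in either line, while 2.95% and 14.3% of all peaks changed over that interval. These comparisons share the 24 hpd libraries with those against NT. Without SOX2 24 hpd replicate 2 the SOX2 count was 5 and without 2 hpd replicate 1 it was 6, and without OCT4 24 hpd replicate 1 the OCT4 count was 8. Of the 10 in the SOX2 line, 2 were at Lefty1, 5 at Lefty2, 2 at Nodal and 1 at Tdgf1. Of the 16 in the OCT4 line, 2 were at Lefty1, 4 at Lefty2, 7 at Nodal and 3 at Tdgf1. Beside the 0 rises, 0 members in the SOX2 line and 1 in the OCT4 line were higher at an unadjusted p under 0.05, and DESeq2 called 0. The block fit gave 15 members lower in the SOX2 line and 22 in the OCT4 line, and 1 higher in the OCT4 line, Lefty1 +7.7 kb (0.53, adjusted p = 0.038). Some of these members had risen by 2 hpd, Nodal −23.0 kb after SOX2 and Nodal −19.6 kb after OCT4 among them.

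A list of 28 other genes of Nodal and activin signalling had 281 peaks within 30 kb of their 5′ ends, 271 of them tested. At 2 hpd of SOX2 9 of these were lost (3.32%, beside 5.07% of all peaks) and 0 gained (beside 0.574%). At 2 hpd of OCT4 10 were lost (3.69%, beside 5.1%) and 11 gained (4.06%, beside 1.92%), and at 2 hpd of NANOG 2 were lost (0.738%, beside 0.939%) and 0 gained (beside 0.0162%). At 24 hpd 33 were lost and 15 gained after SOX2, 46 lost and 22 gained after OCT4, and 6 lost and 0 gained after NANOG. The shares lost at 24 hpd were 12.2% after SOX2, 17% after OCT4 and 2.21% after NANOG, beside the 10.9%, 12.7% and 2.25% of all peaks. The shares gained were 5.54% after SOX2 and 8.12% after OCT4, beside 4.87% and 10.8%, and for NANOG 0.288% of all peaks were gained.

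Among them, Gdf3, a Nodal-related ligand, had a peak 14.6 kb upstream that fell by 2.29 ± 0.26 on the log2 scale at 2 hpd of OCT4 (adjusted p = 8.53e-08) and by 0.99 ± 0.26 at 2 hpd of SOX2 (0.012). Cfc1 (Cryptic), the other EGF-CFC co-receptor beside Tdgf1, had a peak 11.6 kb downstream that fell by 2.66 ± 0.47 at 2 hpd of SOX2 and fell by 3.92 ± 0.57 at 24 hpd (adjusted p = 0.000121 and 1.44e-06). None of its 7 peaks was called at 2 or 24 hpd of OCT4, and 6 hpd was not examined for this list. Skil, a negative regulator of SMAD signalling, lost a peak 5.5 kb upstream at 2 hpd of both SOX2 (−2.22 ± 0.32, adjusted p = 3.76e-06) and OCT4 (−1.17 ± 0.30, 0.00796). Gsc, a classical target of the pathway in the gastrula, lost 5 of 10 peaks at 24 hpd of SOX2 and 4 at 24 hpd of OCT4. Whether these lines differ at Cfc1 or Gsc was not tested.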

How the data were processed

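The authors aligned ATACseq reads to mm10 with BWA 0.7.17-r1188, kept alignments of mapping quality at least 10 with SAMtools 1.10, removed duplicates with Picard 2.12.0, and called peaks with MACS2 on merged libraries. They deposited raw counts of fragments per peak for 31 of the 45 samples. The other 14 samples were not analysed here. The deposited peak list gives a fold enrichment ratio and −log10 p-values, used here for peak positions. Column names were matched to the labels.

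Counts were tested with edgeR 4.0.16 in R 4.3.3 (TMM scaling, quasi-likelihood, Benjamini-Hochberg over all peaks, threshold 0.05). SOX2 at 0.5 and 1 h was fitted in the 12 SOX2 libraries (160432 peaks, those exceeding 10 counts in over 2 libraries) and all else in 27 libraries of the 3 lines (166430 peaks, in over 6 libraries). Standard errors were taken from the fold change and its F statistic. Total counts per library of 1817191 to 17575631 set the precision. The script was tested on simulated data.

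Peaks named with values are promoter peaks (summit within 1 kb), up to 4 members per gene past the threshold at 2 h in SOX2 or OCT4, the 2 largest losses and gains at 24 h per line, and members that differ between lines at 2 h. The most accessible peak of each locus and the remaining named peaks were picked after their values were seen. The members and lists were chosen with earlier results of these data known.

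Same-numbered SOX2 libraries deviated together (correlations 0.137 to 0.486 over 15 pairs of conditions, 49364 peaks), as did OCT4 libraries (0.336 to 0.596 over 6). The SOX2 pairs with NT gave 0.156 to 0.197. SOX2 and OCT4 numbers were therefore taken as pairs, but only in the replicate block, an alternative fit. The main fits used group means and ignored the pairing. NANOG numbers were not taken as pairs, since the pairs with NT gave −0.000285 to 0.113, although the 3 pairs among treated libraries gave 0.386 to 0.48. Alternatives were DESeq2 1.42.0, its size factors, total counts, no count filter, only the lines compared, the replicate block and leaving out each library.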

Additional observations from a re-analysis of the deposited data

Results flagged for a closer look

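The change against NT differed between lines, by the interaction test in edgeR with Benjamini-Hochberg adjustment, for the peaks below. These are values with no explanation.

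Between SOX2 and OCT4 (SOX2 minus OCT4, log2 scale), the change of Tdgf1 +7.6 kb differed by 1.39 at 6 h, that of Tdgf1 −1.5 kb by 1.61 at 24 h and that of Tdgf1 +10.5 kb by 2.68 at 24 h. Tdgf1 −1.5 kb is the one of these that passed under every alternative and without each library.

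Between SOX2 and NANOG at 24 h the difference was −3.28 for Lefty1 −10.1 kb, −2.21 for Lefty1 −0.3 kb, −2.08 for Lefty2 −4.3 kb and −2.84 for Lefty2 +6.9 kb. Between OCT4 and NANOG at 24 h it was −2.76, −1.18, −2.37 and −2.74 for the same 4 peaks, −1.56 for Nodal −23.0 kb, −1.66 for Nodal −1.9 kb, −2.01 for Tdgf1 −1.5 kb and −2.68 for Tdgf1 +10.5 kb. Without the shallow treated NANOG libraries of replicate 2, a comparison added after seeing the data, that of Lefty2 +6.9 kb between OCT4 and NANOG was −2.37 and no longer passed (adjusted p = 0.0622), and the other 11 of these 12 passed. Across all alternatives and left-out libraries, the difference between OCT4 and NANOG missed the threshold in 9 settings for Lefty1 −0.3 kb (DESeq2 among them, adjusted p = 0.0737), 10 for Lefty2 +6.9 kb, 9 for Tdgf1 +10.5 kb and 1 for Nodal −23.0 kb (without OCT4 24 h replicate 2, −1.35, 0.064). That between SOX2 and NANOG missed it in 5 settings for Lefty2 +6.9 kb, each with 1 library left out (adjusted p from 0.0579 to 0.0966). The others passed in every setting.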

How the results depend on the processing

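Of 50 calls of the 13 peaks named by rule, 583 values under the alternatives gave 470 with the same call, 113 that missed the threshold and 0 that turned. With the replicate block the counts of calls moved to 2 lost and 2 gained for SOX2 at 0.5 h, 6, 3, 2 and 4 gained for SOX2 at 1, 2, 6 and 24 h, 7 lost for OCT4 at 6 h, 2 gained for OCT4 at 24 h, and 3, 7 and 8 differences between SOX2 and OCT4 at 2, 6 and 24 h. For NANOG, whose numbers were not taken as pairs, the block gave 2 gained at 2 h, 1 gained at 6 h and 2 lost at 24 h, 1 and 12 differences from SOX2 at 2 and 24 h, and 2 from OCT4 at 2 h. It also gave 3 lost for SOX2 at 1 h, 12 lost for SOX2 at 24 h, 3 lost and 3 gained for OCT4 at 2 h, 4 gained at 6 h and 24 lost at 24 h, and 19 differences between OCT4 and NANOG at 24 h. The block ended none of the 50 named calls.

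DESeq2 gave 0 lost for SOX2 at 1 h, 0 gained for SOX2 at 2 h, 0 lost for OCT4 at 2 h, 0 and 1 differences between SOX2 and OCT4 at 6 and 24 h, and 8 between OCT4 and NANOG at 24 h. Without a count filter 1 was lost for SOX2 at 1 h and 2 differed between SOX2 and OCT4 at 6 h. Total counts gave 1 lost and 4 gained for SOX2 at 1 h and 2 differences between SOX2 and OCT4 at 6 h. Fits of only the lines compared gave 2, 2 and 4 gained for SOX2 at 2, 6 and 24 h, 0 lost for OCT4 at 2 h, 2 differences between SOX2 and OCT4 at 6 h, 1 between SOX2 and NANOG at 2 h and 6 between OCT4 and NANOG at 24 h. The cause of these moves was not tested. Total counts moved the median of all peaks at 24 h of OCT4 to −0.14, from −0.01.

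Leaving out 1 library, losses and gains ranged as follows. For SOX2 they were 0 to 1 and 0 at 0.5 h, 0 and 0 to 4 at 1 h, 0 to 2 and 0 to 1 at 2 h, 2 and 0 to 1 at 6 h, and 6 to 9 and 0 to 1 at 24 h. For OCT4 they were 0 to 2 and 0 to 2 at 2 h, 1 to 4 and 3 to 5 at 6 h, and 13 to 18 and 0 to 1 at 24 h. For NANOG they were 0 and 0 at 2 and 6 h, and 0 to 1 and 0 at 24 h. Differences numbered 0, 0 to 2 and 1 to 2 for SOX2 and OCT4, 0 to 1 and 3 to 6 for SOX2 and NANOG, and 0 to 1 and 5 to 12 for OCT4 and NANOG. Changes from 2 to 24 h numbered 5 to 8 for SOX2 and 8 to 14 for OCT4. With 2 libraries a group, faint peaks such as Tdgf1 +10.5 kb are limited by depth.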
